A study of Homo sapiens with 6 samples.

Results

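NAV3, CTTNBP2, DAB1 and AMIGO2 are 4 genes best known from the growth and guidance of neurons, and all 4 were found, by gene symbol, among the 426 genes that the authors' deposited table lists as differing when VPS35 is depleted in gastric cancer cells. They were thus selected on the authors' own fold changes and adjusted p-values for that contrast, and on what the genes are known for. The 6 RNA-seq samples were 3 of MKN28 cells carrying short hairpin RNA against VPS35 (shVPS35) and 3 of MKN28 cells carrying a control vector. MKN28 is an established human gastric cancer line, recorded in line registries as derived from MKN74, and VPS35 forms the backbone of retromer, which carries membrane proteins out of endosomes. The labels do not say which hairpin sequence was used, whether the shVPS35 samples came from 1 clone, or at what time RNA was taken, and the design text calls the samples of a group biological replicates. The expression values are per gene and sample, with 2 decimals, in a unit that the header does not name, so that read depth is unknown and levels are compared within a gene, not between genes.

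A neurite grows by extending microtubules behind a growth cone whose shape is set by actin, and the growth cone is steered by secreted and membrane-bound cues read by receptors on its surface. NAV3 is a neuron navigator, one of a family of microtubule-associated proteins related to the axon guidance gene unc-53 of C. elegans. CTTNBP2 binds the actin regulator cortactin and is known from dendritic spines of rodent neurons. DAB1 is the cytoplasmic adaptor that is phosphorylated when the secreted protein reelin binds its receptors, the step that positions neurons in the layers of the mouse cortex. AMIGO2 is a membrane protein with leucine-rich repeats and an immunoglobulin domain that mediates adhesion between cells, and it has also been described under the name DEGA for its differential expression in gastric adenocarcinoma.

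The 4 genes lie at separate places in the genome, and the start window printed for NAV3 is far poorer in G and C than the others. The RefSeq windows shown here run from 250 bases before to 50 bases after the most upstream start given for each gene (GRCh38.p14, read along the strand of the gene). They are printed because their base composition differs and because the AMIGO2 start lies inside another listed gene. The windows are chr12:77830644-77830943 on the plus strand for NAV3, chr7:117873392-117873691 on the minus strand for CTTNBP2, chr1:58546677-58546976 on the minus strand for DAB1 and chr12:47079910-47080209 on the minus strand for AMIGO2. Capitals mark matches, on either strand, to the motifs named after the sequences.
NAV3: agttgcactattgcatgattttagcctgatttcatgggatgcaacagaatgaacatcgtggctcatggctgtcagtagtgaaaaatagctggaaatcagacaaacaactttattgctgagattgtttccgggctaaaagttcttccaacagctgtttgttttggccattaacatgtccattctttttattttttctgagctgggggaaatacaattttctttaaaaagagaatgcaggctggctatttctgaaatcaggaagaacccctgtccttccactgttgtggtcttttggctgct
CTTNBP2: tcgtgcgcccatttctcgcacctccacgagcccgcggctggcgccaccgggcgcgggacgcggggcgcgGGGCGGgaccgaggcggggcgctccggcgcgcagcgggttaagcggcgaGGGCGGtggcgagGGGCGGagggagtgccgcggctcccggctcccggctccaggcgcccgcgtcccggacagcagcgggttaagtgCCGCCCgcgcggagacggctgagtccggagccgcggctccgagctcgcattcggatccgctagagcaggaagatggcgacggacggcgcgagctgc
DAB1: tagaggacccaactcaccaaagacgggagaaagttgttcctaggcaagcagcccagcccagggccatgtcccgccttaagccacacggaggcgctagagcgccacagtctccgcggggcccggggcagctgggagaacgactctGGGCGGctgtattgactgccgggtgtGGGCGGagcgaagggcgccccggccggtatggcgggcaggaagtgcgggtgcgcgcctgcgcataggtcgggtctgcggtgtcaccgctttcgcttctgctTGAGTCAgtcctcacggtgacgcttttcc
AMIGO2: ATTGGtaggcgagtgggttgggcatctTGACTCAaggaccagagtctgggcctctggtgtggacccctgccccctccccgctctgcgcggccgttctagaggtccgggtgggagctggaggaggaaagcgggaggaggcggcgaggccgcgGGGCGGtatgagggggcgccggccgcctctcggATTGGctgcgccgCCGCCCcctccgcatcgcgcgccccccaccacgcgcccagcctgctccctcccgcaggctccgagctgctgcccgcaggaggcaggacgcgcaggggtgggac

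The NAV3 window held 40.0% G and C with 2 CpG dinucleotides, the CTTNBP2 window 77.7% with 53, the DAB1 window 66.0% with 27 and the AMIGO2 window 73.7% with 30. Over all 35116 such windows in the RefSeq table the median was 58.7% G and C with 14 CpG dinucleotides. The NAV3 window was thus poor in CpG and the other windows were rich in it. The motifs searched on both strands were AP-1 (TGANTCA), part of the cAMP response element (TGACGT), the E-box (CACGTG), TEAD (GGAATG), an ETS core (CCGGAAG), the TATA box (TATAAA), the GC box of SP1 (GGGCGG) and CCAAT. AP-1 letters were found once each in the DAB1 and AMIGO2 windows, and 7.71% of all windows hold them. GC boxes were found 4 times in the CTTNBP2 window and 2 times each in the DAB1 and AMIGO2 windows, and 45.0% of all windows hold at least 1. The AMIGO2 window also had 2 CCAAT letters, found in 34.6% of all windows. None of the 8 motifs was in the NAV3 window, and no matches overlapped. A match describes these letters only. RefSeq gives further starts for each gene, 2 in all for NAV3, CTTNBP2 and AMIGO2 and 6 for DAB1, and GENCODE 29 places the first start of NAV3 farther upstream. The further window held 46.7% G and C for NAV3, 62.3% for CTTNBP2 and 75.3% for AMIGO2, and the further DAB1 windows 58.0% to 82.3%. That of CTTNBP2 had 13 CpG dinucleotides, below the median of 14. The motif matches also depend on the window. No further DAB1 window held AP-1 letters, and 1 of these windows had 2 TEAD matches and another 1 E-box. The further CTTNBP2 window held no GC box, and that of NAV3 held 1 CCAAT. The further AMIGO2 window, which overlaps the first, again held AP-1 letters once and 2 GC boxes, with 1 CCAAT.

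As a check on the labels, VPS35 itself had values of 12.9, 15.6 and 11.8 in the shVPS35 samples, against 64.4, 64.3 and 67.2 in the vector samples. The hairpin samples thus held 20.6% of the vector level of VPS35, and the sample with the most VPS35 left was shVPS35 sample 2. Summed over all listed genes, the values were 4696 to 5004 in the shVPS35 samples and 5029 to 5130 in the vector samples. The RNA AL355075.4 is a large part of these sums, at 1348 to 1618 in the shVPS35 and 393 to 414 in the vector samples. The nearness of the sums therefore does not hold for the other listed genes. In these bulk samples, fewer cells that express a gene and less RNA of it per cell cannot be told apart.

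Of the 4 genes, the cortactin partner CTTNBP2 was higher in the shVPS35 cells, and NAV3, DAB1 and AMIGO2 were lower. CTTNBP2 was 7.52-fold higher by the group means, AMIGO2 was 13.2-fold lower, NAV3 3.07-fold lower and DAB1 2.47-fold lower. The groups did not overlap for CTTNBP2, AMIGO2 and NAV3, and they overlapped for DAB1. All 4 are in the table because the authors called them on these same 6 samples, so their differences are descriptions and carry no test here. The authors listed 2.65% of the 16063 genes they tested, 1.18% as higher and 1.47% as lower in shVPS35. Groups of listed genes do not overlap in 93.4% of the 426, 42.5% as higher and 50.9% as lower in shVPS35, so that 3 of 4 says nothing particular about these genes.

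**Figure D1:**
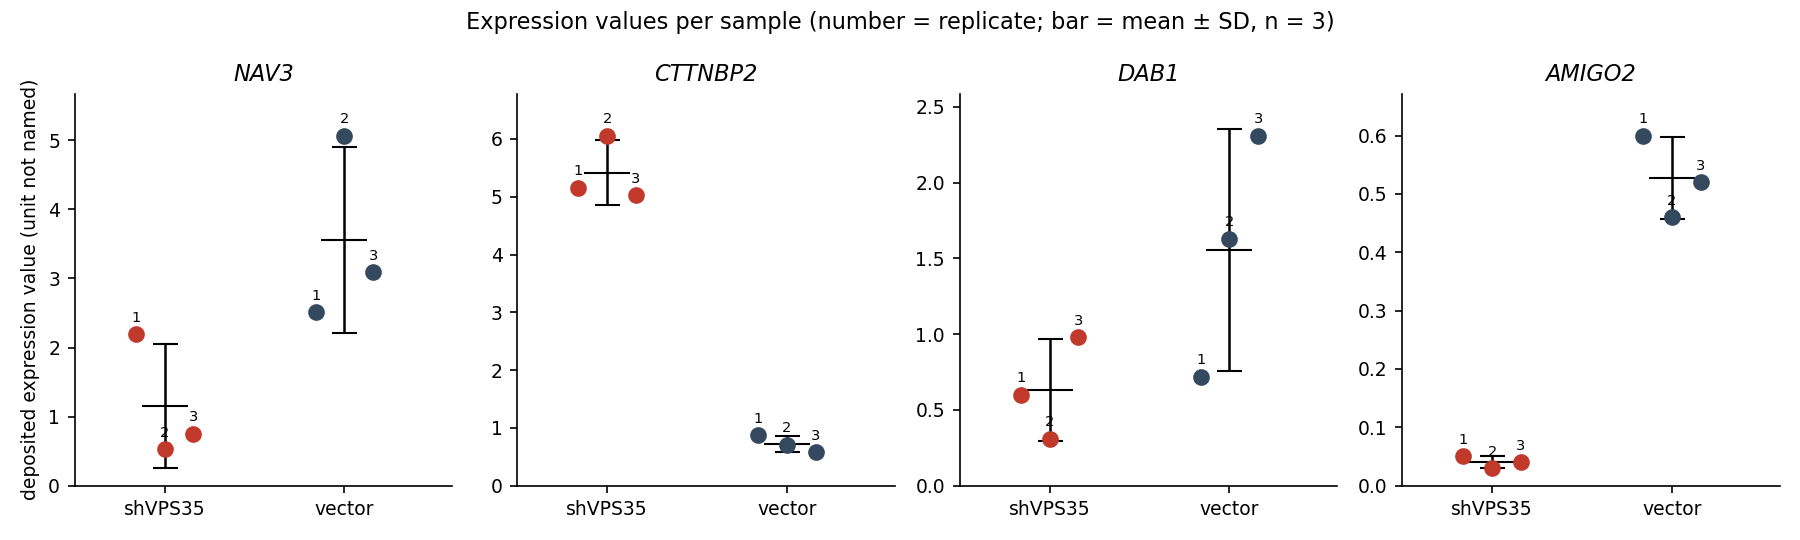
Deposited expression value (unit not named, linear axis from 0) of NAV3, CTTNBP2, DAB1 and AMIGO2 in each of the 3 shVPS35 samples (left in each panel) and 3 vector samples (right), with the mean and SD as bars and the replicate number above each point. CTTNBP2 and AMIGO2 show wide gaps between the groups, NAV3 a narrow gap below the vector samples because of shVPS35 sample 1 at 2.19, and DAB1 an overlap of shVPS35 sample 3 at 0.98 with vector sample 1 at 0.72.

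NAV3, the microtubule-binding navigator (ENSG00000067798; GRCh38, chromosome 12, 77324641 to 78213008, plus strand), had values of 2.19, 0.53 and 0.75 in the shVPS35 samples, against 2.51, 5.07 and 3.09 in the vector samples. Sample 1 of shVPS35 stood close to the lowest vector sample, while samples 2 and 3 lay far below all vector samples, and vector sample 2 was the highest of all. NAV3 averaged 1.16 ± 0.902 in shVPS35 cells and 3.56 ± 1.34 in vector cells (SD, n = 3 each). On the log2(value + 1) scale, which understates changes of low genes, the difference of shVPS35 minus vector was -1.12 ± 0.30 (limma SE). The mean in shVPS35 was 32.5% of the vector mean with all samples and 18.0% without shVPS35 sample 1.

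The spread of NAV3 between shVPS35 samples was wide for a listed gene of its level. Genes that are not listed could not be compared. Its coefficient of variation there was 78.0%, against a median of 20.5% over the 205 listed genes with an shVPS35 mean of 0.5 to 5, and 2 of these genes had a larger one. In the vector samples it was 37.7%, against a median of 18.3% over 216 listed genes in the same range of level. Sample 1 of shVPS35 was not high in general, since it was the highest of its group for 132 listed genes and the lowest for 156. Its VPS35 value, 12.9, lay between those of the other two shVPS35 samples.

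NAV3 also differs from the other 3 genes in how well the authors' fold change matches the deposited values. In the authors' deposited table the fold change of shVPS35 over vector is 0.116 for NAV3, whereas the group means give 0.325. On the log2 scale these are -3.11 and -1.62, a gap of -1.49. This was the ninth largest gap of the 423 listed genes with both means above 0, of which 13 had a gap over 1, and the median gap was 0.087 in size. The gaps of CTTNBP2, DAB1 and AMIGO2 were -0.09, -0.03 and 0.15. The cause of the gap was not tested. By the authors' deposited table NAV3 has an adjusted p of 9.0e-18 and the 24th largest fall in log2 fold change of 236 genes listed as lower.

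**Figure D2:**
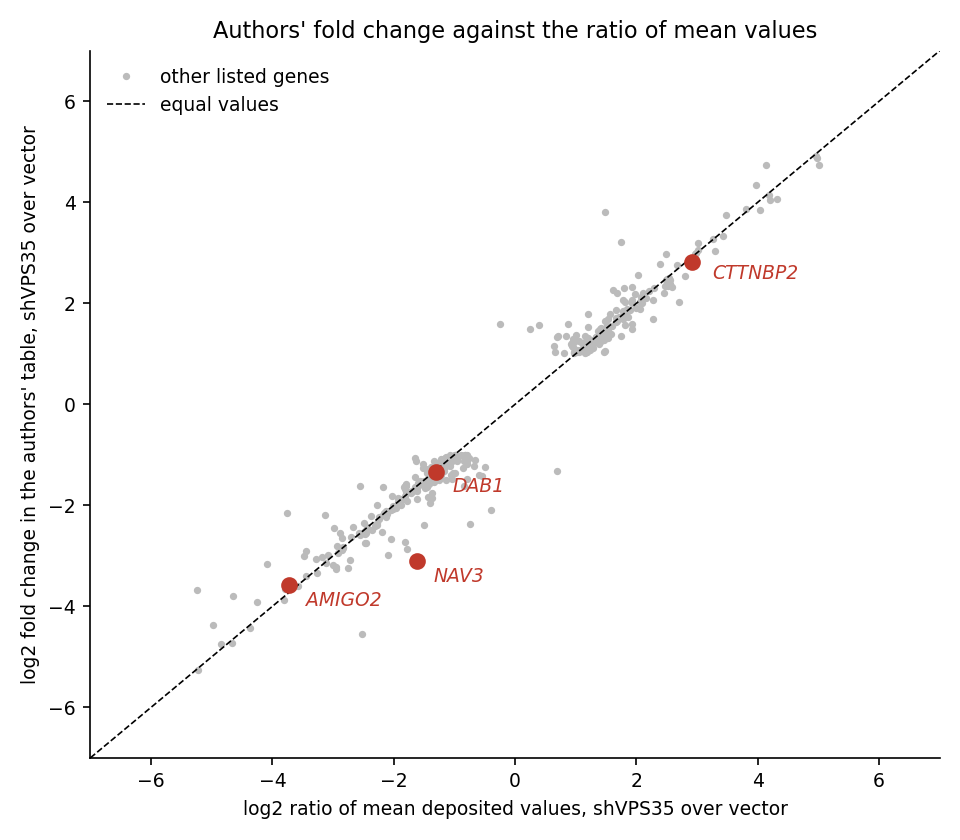
Log2 fold change in the authors' table (vertical) against the log2 ratio of the group means of the deposited values (horizontal), both shVPS35 over vector, for listed genes with both means above 0; the dashed line marks equal values. CTTNBP2, DAB1 and AMIGO2 lie near the line, and NAV3 lies below it at -1.62 by the means and -3.11 in the authors' table.

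CTTNBP2, the cortactin-binding protein gene (ENSG00000077063; chromosome 7, 117710651 to 117874139, minus strand), had values of 5.16, 6.06 and 5.03 in the shVPS35 samples, against 0.87, 0.71 and 0.58 in the vector samples. Every shVPS35 sample lay above every vector sample, and the lowest shVPS35 value was 5.78 times the highest vector value. The difference on the log2(value + 1) scale was 1.90 ± 0.13 (limma SE), from means of 5.42 ± 0.561 in shVPS35 and 0.720 ± 0.145 in vector cells (SD, n = 3 each). By the authors' deposited table its fold change is 7.05, with an adjusted p of 1.27e-76 and the 24th largest rise in log2 fold change of 190 genes listed as higher.

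DAB1, the reelin pathway adaptor (ENSG00000173406; chromosome 1, 56994778 to 58546734, minus strand), had values of 0.60, 0.31 and 0.98 in the shVPS35 samples, against 0.72, 1.63 and 2.31 in the vector samples. The samples of both groups were widely scattered, and shVPS35 sample 3 lay above vector sample 1. In 8 of the 9 pairings of a shVPS35 with a vector sample the shVPS35 value was the lower. The means were 0.630 ± 0.336 in shVPS35 and 1.55 ± 0.798 in vector cells (SD, n = 3 each), and the difference on the log2(value + 1) scale was -0.62 ± 0.25 (limma SE). Without vector sample 3 that difference was -0.40. The coefficient of variation was 53.3% in shVPS35 and 51.4% in vector samples, again above the medians of 20.5% and 18.3% for listed genes of like level. In the authors' deposited table DAB1 has an adjusted p of 0.0308, close to the 0.0497 of the last listed gene, and a log2 fold change of -1.33, the smallest in size of the 4.

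AMIGO2, the adhesion molecule gene (ENSG00000139211; chromosome 12, 47075707 to 47079951, minus strand), had values of 0.05, 0.03 and 0.04 in the shVPS35 samples, against 0.60, 0.46 and 0.52 in the vector samples. The groups were far apart in ratio, with the lowest vector value 9.2 times the highest shVPS35 value. AMIGO2 averaged 0.040 ± 0.010 in shVPS35 and 0.527 ± 0.0702 in vector cells (SD, n = 3 each), or 7.59% of the vector level. Because the values carry 2 decimals, rounding alone allows 6.58% to 8.63%. The difference on the log2(value + 1) scale was only -0.55 ± 0.06 (limma SE), since all values of AMIGO2 lie below the pseudocount of 1. In the authors' deposited table its log2 fold change is -3.57, the 14th largest fall of 236, with an adjusted p of 1.03e-05.

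AMIGO2 and CTTNBP2 each overlap another listed gene, and in both places the overlapping pair moved the same way. These neighbours were looked for after the values of the table had been seen. PCED1B, a gene of the PC-esterase family on the opposite strand (chromosome 12, 47079603 to 47236662), begins within AMIGO2 so that the starts of both genes overlap by 349 bases, and the AMIGO2 start window printed above lies inside PCED1B. PCED1B had values of 0.14, 0.06 and 0.06 in the shVPS35 samples, against 1.14, 0.81 and 0.90 in the vector samples. PCED1B was thus 11.0-fold lower in shVPS35 by the group means, beside 13.2-fold lower for AMIGO2, and its groups did not overlap.

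CFTR, the chloride channel gene of epithelia (chromosome 7, 117465784 to 117715971, plus strand), meets CTTNBP2 tail to tail, with 5321 bases in common. CFTR had values of 4.52, 4.48 and 4.27 in the shVPS35 samples, against 0.66, 1.30 and 1.30 in the vector samples. CFTR was 4.07-fold higher in shVPS35 by the group means, beside 7.52-fold for CTTNBP2, and its groups did not overlap. Exons share 51 bases in the CTTNBP2 and CFTR pair and 123 bases in the AMIGO2 and PCED1B pair, which is 0.725% of the exonic bases of CTTNBP2 and 3.11% of those of AMIGO2. No source used here says whether the libraries kept strand, so reads of those shared bases cannot be assigned to one gene. Among all listed genes, 16 overlap another listed gene, in 8 pairs, of which 7 moved the same way.

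**Figure D3:**
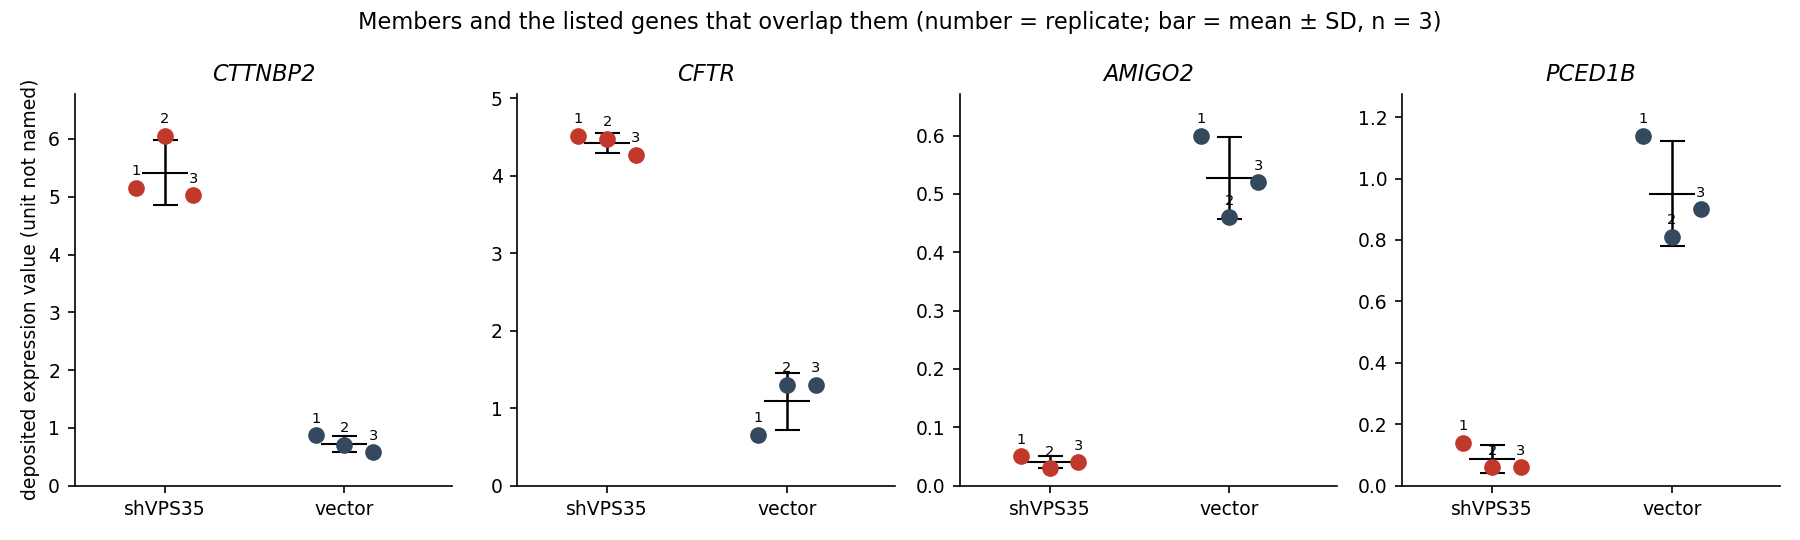
Deposited expression value (unit not named, linear axis from 0) of CTTNBP2 and CFTR, which overlap on chromosome 7, and of AMIGO2 and PCED1B, which overlap on chromosome 12, in the 3 shVPS35 (left) and 3 vector samples (right), with mean and SD as bars and the replicate number above each point. CTTNBP2 and CFTR are higher in all 3 shVPS35 samples, and AMIGO2 and PCED1B are lower in all 3.

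DAB1 and NAV3 showed no such pair. DAB1 shares 257 exonic bases with OMA1, a gene on the same strand whose own start lies in the DAB1 window printed above, and 123 with the antisense RNA AL161740.1, and neither gene is listed. No exon of NAV3 shares a base with another gene. No listed gene lay within 500 kb of NAV3, where GENCODE 29 annotates 14 other genes, 3 of them protein coding.

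In genomic span 2 of the 4 genes are among the longest of the table. DAB1 covers 1552 kb and NAV3 888 kb, which rank second and seventh among the 366 listed protein-coding genes. CTTNBP2 covers 163 kb, rank 73, and AMIGO2 4.25 kb, rank 342. The median span was 36.2 kb over the listed protein-coding genes and 27.1 kb over all 19969 in GENCODE 29. GENCODE 29 annotates 16 transcripts of NAV3, 11 of DAB1, 12 of CTTNBP2 and 3 of AMIGO2, and the deposited values do not separate them. The longest genes, DAB1 and NAV3, were also those with the widest scatter between samples, a description of 4 genes only.

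**Figure D4:**
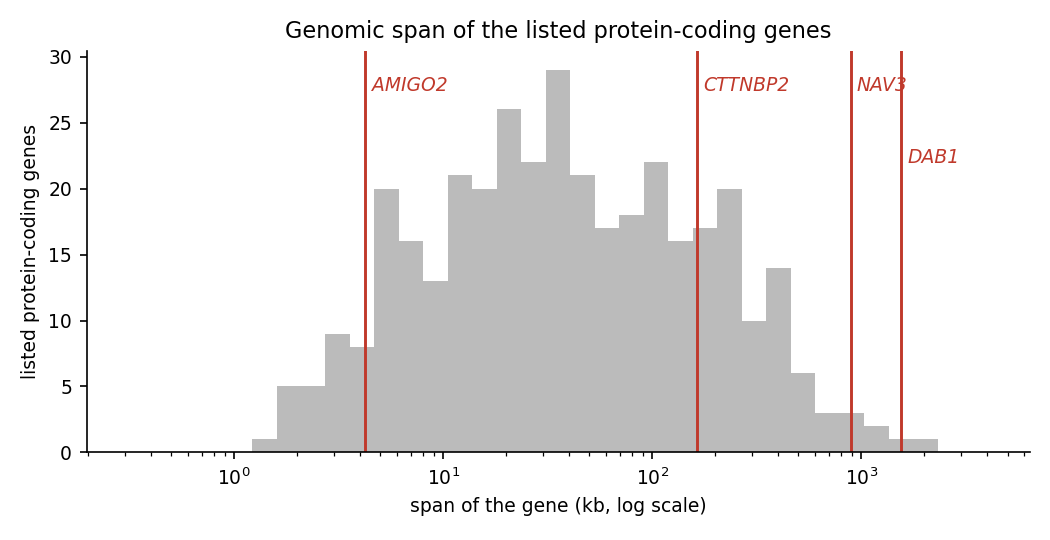
Number of listed protein-coding genes (vertical) by genomic span in kb (horizontal, log scale), with red lines at the 4 genes. AMIGO2 at 4.25 kb lies in the lower part, CTTNBP2 at 163 kb above the middle, and NAV3 at 888 kb and DAB1 at 1552 kb at the upper end.

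The relatives and pathway partners of the 4 genes were looked up in the table, where a low count is no result, since only 2.65% of all genes tested are listed. On the family lists NAV1 and NAV2, the other two navigators, and AMIGO1 and AMIGO3 were not listed. Of 26 genes of the reelin and DAB1 pathway DAB1 alone was listed, and reelin (RELN), its receptors VLDLR and LRP8, and the kinases FYN and SRC were not. Among 19 genes of cortactin, CTTNBP2 and the STRIPAK phosphatase complex, in which CTTNBP2 takes part, CTTNBP2 alone was listed. None of 32 leucine-rich repeat neuronal adhesion genes and none of 44 guidance effector and growth cone actin genes was listed. Genes that the table does not list either fell short of the authors' limits or were never tested, and their levels are not analysed here.

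Beyond the 4 genes, 5 of the 245 other genes on the 9 cytoskeleton and guidance lists were in the table, or 2.04%, beside the 2.65% of all genes tested. Of these 5, NTN4, SLIT2 and EPHB2 were listed as lower and MAP1B and UNC5B as higher.

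Both listed guidance ligands, of 41 on that list, were lower. NTN4, a netrin of basement membranes, had values of 11.5, 13.5 and 12.1 in the shVPS35 samples, against 26.5, 24.8 and 24.1 in the vector samples. SLIT2, the secreted ligand of ROBO receptors that repels axons, had values of 0.35, 0.32 and 0.44 in the shVPS35 samples, against 1.43, 1.38 and 1.37 in the vector samples. The groups of both ligands lay apart, with 49.2% of the vector mean left for NTN4 and 26.6% for SLIT2.

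Of 49 guidance receptors 2 were listed, and they went opposite ways. UNC5B, a netrin receptor, had values of 1.59, 1.43 and 1.76 in the shVPS35 samples, against 0.54, 0.55 and 0.60 in the vector samples, a mean 2.83-fold higher without overlap. EPHB2, an ephrin receptor tyrosine kinase, had values of 0.15, 0.25 and 0.75 in the shVPS35 samples, against 0.63, 0.35 and 0.65 in the vector samples. Its groups overlapped, and shVPS35 sample 3 was the highest of all 6. From 33 microtubule plus-end and binding proteins MAP1B alone was listed, a stabiliser of microtubules in growing axons, with values of 1.55, 1.83 and 1.31 in the shVPS35 samples, against 0.29, 0.48 and 0.36 in the vector samples. MAP1B was 4.15-fold higher by the means.

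**Figure D5:**
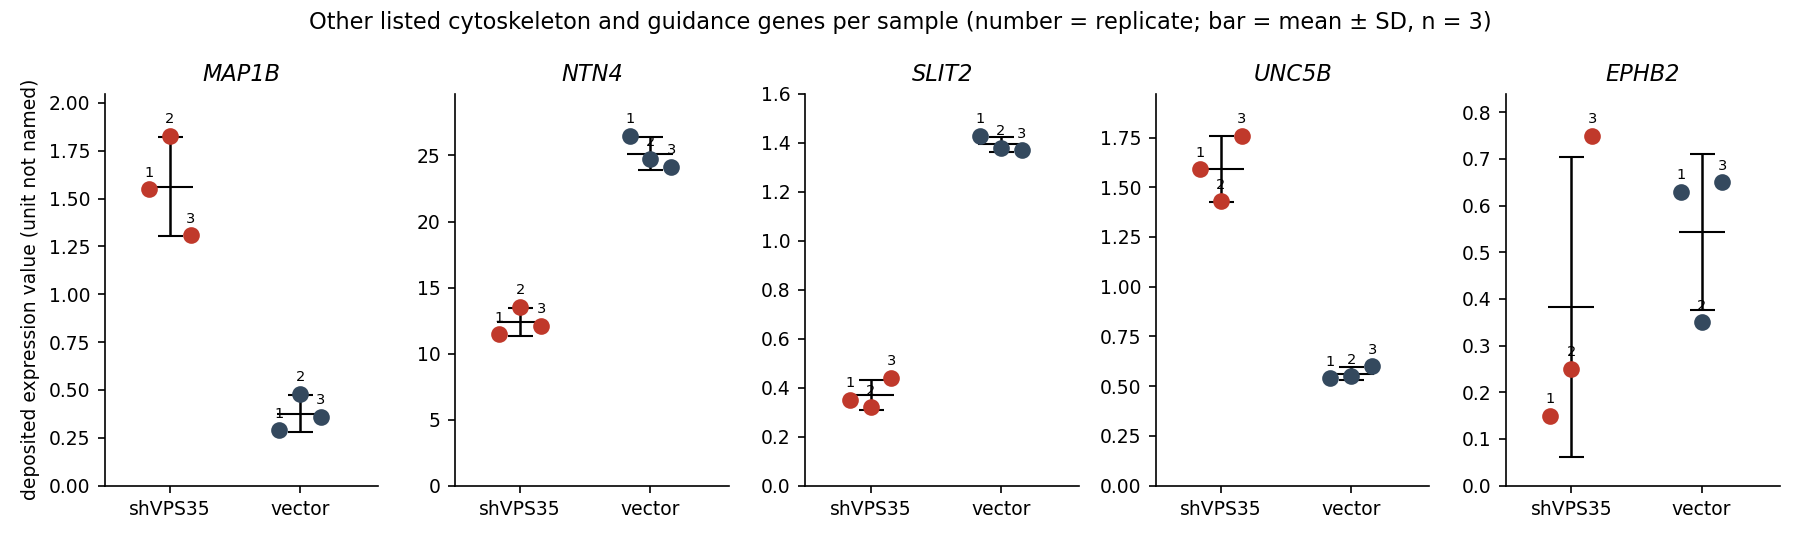
Deposited expression value (unit not named, linear axis from 0) of the 5 other listed cytoskeleton and guidance genes in the 3 shVPS35 (left) and 3 vector samples (right), with mean and SD as bars and the replicate number above each point. MAP1B and UNC5B are higher and NTN4 and SLIT2 lower in all 3 shVPS35 samples, and the EPHB2 groups overlap with shVPS35 sample 3 at 0.75.

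None of 26 pan-neuronal markers, such as RBFOX3, SNAP25 and SYP, and none of 10 glial markers was listed, which is no result for lists of this size when 2.65% of all genes tested are listed. Of the epithelial markers, ESRP1 was listed as higher. The epithelial identity of the line could not be read from the table, since EPCAM, CDH1 and the keratins KRT8, KRT18 and KRT19 are not among its genes.

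The listed genes most like each of the 4 over the 6 samples were taken by the root mean square distance between log2(value + 1) profiles, each centred on its own mean, among the 292 listed genes that reached a value of 1 in 3 samples or more. For CTTNBP2 these were ATOH8, a transcription factor gene, at 0.06, the RNA AL355075.4 at 0.07 and the GTPase gene RHOU at 0.11. For AMIGO2 they were FRMD6, ADAM21 and SFMBT2, all at 0.07, but their shVPS35 means were 57.6%, 39.5% and 50.3% of the vector means, against 7.59% for AMIGO2. All AMIGO2 values lie below the pseudocount of 1, so on this scale its fall is compressed and the small distances do not mean alike folds, and the limit on low values kept out genes as low as PCED1B. For NAV3 they were farther off, with AREG, an EGF receptor ligand, at 0.28, STXBP6 at 0.30 and the keratin gene KRT13 at 0.31. In AREG, STXBP6 and KRT13, as in NAV3, sample 1 was the highest of the shVPS35 samples and sample 2 the highest of the vector samples. For DAB1 they were LINC01588 at 0.20, PSG4 at 0.23 and TRIM22 at 0.25, and in each vector sample 3 was the highest, as in DAB1. A small distance describes the log2(value + 1) scale in these 6 samples and no more.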

How the data were processed

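RNA-seq was done on 3 shVPS35 and 3 vector samples of MKN28 cells, grouped by their titles. Total RNA was extracted with TRIzol and treated with DNase I, per the labels' protocols. Tools named in the submitters' processing notes are fastp, HISAT and RSEM, with the build GRCh38.p13; their versions and roles and the authors' test are not given in the sources used. The authors' deposited table holds 426 genes with an expression signal per sample, the mean signal per group, the authors' fold change ratio, its log2, and a p-value and adjusted p-value. The header names no unit for the signal, and it was used as deposited. In every listed gene the adjusted p is under 0.05 and the log2 fold change over 1 in size. The 16063 genes tested were recovered from the p-values (387 of 422 ranks whole within 0.01).

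Differences of log2(value + 1) and their SE come from limma 3.58.1 (trend and robust, statmod 1.5.0, R 4.3.3), fitted on 294 genes, namely the 292 that reached a value of 1 in 3 samples or more, plus DAB1 and AMIGO2, which did not pass that filter. The fit was tested on simulated data whose base levels lay above all values of DAB1 and AMIGO2 and above the vector values of CTTNBP2. The lowest base levels also lay above every NAV3 value except that of vector sample 2. That test therefore does not cover genes as low as these. No p-value of this fit is given, since the table was chosen on the same contrast. Depth is unknown, so precision was judged from replicates. The limma SE is moderated, that is, drawn toward the variance of the other fitted genes, which were listed partly for their small p-values. For NAV3 and DAB1, with replicate SD of 0.49 and 0.40 on that scale, the SE is smaller than their own replicates alone give. The 4 genes and all gene lists were chosen with earlier results of these data known. Named genes are VPS35, the 4 genes, listed genes of the lists, except any not reported here, and for each of the 4 the 3 nearest profiles; CFTR and PCED1B were added after their values were seen. Positions come from GENCODE 29 (GRCh38; 421 of 426 identifiers matched), and start sequences from RefSeq (GRCh38.p14), where all 4 genes matched by symbol. Other computations used Python 3.11.15, numpy 2.4.6 and pandas 2.3.3. Alternatives were other pseudocounts, filters, centring, a replicate block, medians and leaving out each sample.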

Additional observations from a re-analysis of the deposited data

How the results depend on the processing

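No direction changed for the 4 genes under any of the alternatives. For NAV3, CTTNBP2 and AMIGO2, whose groups do not overlap, another pseudocount or leaving out a sample could not have changed it. The log2 differences depend on the pseudocount. With 0.1 they were -1.71 for NAV3, 2.76 for CTTNBP2, -1.15 for DAB1 and -2.16 for AMIGO2, and with 5 they were -0.47, 0.86, -0.21 and -0.13. Centring on the median gene gave -0.47 for AMIGO2, against -0.55 as reported. The other 74 of 83 alternative values moved by less than 1 SD between replicates, or, for the count of non-overlapping genes, by less than 1.5 times. Some of these could not move. Another filter leaves each log2 difference the same by construction, and leaving out a sample can only keep or raise the count of non-overlapping genes. Leaving out 1 sample at a time gave log2 differences of -1.44 to -0.89 for NAV3, 1.83 to 1.96 for CTTNBP2, -0.88 to -0.40 for DAB1 and -0.58 to -0.52 for AMIGO2. The percent of the vector level then ranged from 18.0% to 41.3% for NAV3, 686% to 840% for CTTNBP2, 29.3% to 53.6% for DAB1 and 6.65% to 8.54% for AMIGO2, and the count of listed genes without overlap, 398 with all samples, from 402 to 407. NAV3 was at 18.0% without shVPS35 sample 1, and DAB1 at -0.40 without vector sample 3. With the replicate number as a block the differences stayed at -1.12, 1.90, -0.62 and -0.55, by construction, with SE of 0.35, 0.13, 0.19 and 0.04. The correlations of same-numbered deviations over 292 listed genes were -0.06, -0.09 and 0.03, beside -0.04 to 0.11 between unlike numbers. Whether the numbers pair the samples cannot be told from these, since only genes listed for this contrast could be compared. Depth is unknown, so no counting error can be given, and all values of AMIGO2 lie below the pseudocount of 1.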

Other observations

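The epithelial marker ESRP1, an epithelial splicing regulator, had values of 0.25, 0.39 and 0.32 in the shVPS35 samples, against 0.10, 0.13 and 0.05 in the vector samples. It was 3.43-fold higher by the means, at low values in both groups. The groups did not overlap, as in 93.4% of listed genes. In the authors' deposited table its adjusted p is 0.0332, beside 0.0308 for DAB1.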
